A study of Mus musculus with 24 samples.

Results

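The genes described here are the subunits of oxidative phosphorylation. They are the protein-coding genes whose GENCODE M21 symbol starts with Nduf, Uqcr, Atp5, Sdh followed by a letter from a to d, Cox4 to Cox8, mt-Nd, mt-Co, mt-Cytb or mt-Atp. The rule took 111 of the 54532 genes in the count tables and used no measured value. Of these, 86 are nuclear genes counted as subunits (36 of complex I, 4 of complex II, 8 of complex III, 20 of complex IV and 18 of complex V), 13 are mRNAs of the mitochondrial genome (7, 0, 1, 3 and 2 in the same order) and 12 are nuclear assembly factors (Ndufaf1 to Ndufaf8 and Sdhaf1 to Sdhaf4), which help to build complexes I and II but are not part of them. The subunit class was set by symbol. Whether each gene in it is a structural subunit was not checked, Cox7a2l and Atp5s (Dmac2l in RefSeq) among them. A further 13 genes with matching symbols, among them pseudogenes, are not protein coding and were left out.

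Trex1 knockout (Trex1-/-) mice gave the RNA, taken from tongue, muscle, stomach and heart. They were on the C57BL/6J background and were given SN-011 or not, with 3 samples in each of the 8 groups (heart control, heart SN-011 and so on). Trex1 encodes an exonuclease that removes DNA from the cytosol, and without it the DNA sensor cGAS drives the adaptor STING. SN-011 blocks STING. The sources differ on the dosing. The GEO labels give 5 mg/kg 3 times per week for 4 weeks and call the controls untreated, and the paper's methods give 10 mg/kg 1 time per day for 2 weeks from 1 month of age, with 1% Tween 80 in PBS for the controls. Every mouse lacked Trex1, so no comparison with a wild type is made, and which muscle was taken is not given in the sources used here.

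Oxidative phosphorylation is the route by which mitochondria turn the energy of NADH and succinate into ATP. Complexes I and II pass electrons to coenzyme Q, complex III passes them on to cytochrome c and complex IV to oxygen, and the proton gradient made on the way drives complex V, the ATP synthase. Complexes I, III, IV and V are built from proteins of both genomes, complex II from nuclear genes only, and some complex IV subunits exist in a form of heart and skeletal muscle and a form of other tissues. Heart and skeletal muscle are known for their dense mitochondria, and the acid-secreting parietal cells of the stomach are rich in them as well.

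Promoters of 4 complex IV subunits are shown because these genes carry large differences between tissues below, and that of Ndufs4, of complex I, because it had the lowest p-value for a difference with SN-011 that varied among tissues. Cox6a1 and Cox8a are the forms found widely, and Cox7a1 and Cox8b are muscle forms. Each stretch is RefSeq sequence of GRCm38.p6, 250 bases before to 50 bases after the start of the gene, 5′ to 3′ on the gene's strand. Capitals mark the NRF1 motif in Cox6a1, the YY1 motif in Ndufs4 and, in Cox8a, ACTTCCGG, the reverse complement of the ETS motif CCGGAAGT.
Cox6a1, chr5:115348909-115349208, minus strand: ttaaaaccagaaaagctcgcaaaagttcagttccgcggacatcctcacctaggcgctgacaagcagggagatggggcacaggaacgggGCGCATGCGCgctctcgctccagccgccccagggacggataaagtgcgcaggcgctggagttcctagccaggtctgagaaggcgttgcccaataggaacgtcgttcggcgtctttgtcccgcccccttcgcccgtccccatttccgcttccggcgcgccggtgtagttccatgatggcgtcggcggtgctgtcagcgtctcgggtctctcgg
Cox8a, chr19:7217567-7217866, minus strand: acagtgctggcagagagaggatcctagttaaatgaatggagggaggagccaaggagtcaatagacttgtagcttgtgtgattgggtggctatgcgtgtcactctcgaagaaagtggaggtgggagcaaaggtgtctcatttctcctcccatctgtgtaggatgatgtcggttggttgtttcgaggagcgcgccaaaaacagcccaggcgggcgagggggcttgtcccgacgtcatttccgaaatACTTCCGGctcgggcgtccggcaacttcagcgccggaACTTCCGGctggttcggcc
Cox7a1, chr7:30183921-30184220, plus strand: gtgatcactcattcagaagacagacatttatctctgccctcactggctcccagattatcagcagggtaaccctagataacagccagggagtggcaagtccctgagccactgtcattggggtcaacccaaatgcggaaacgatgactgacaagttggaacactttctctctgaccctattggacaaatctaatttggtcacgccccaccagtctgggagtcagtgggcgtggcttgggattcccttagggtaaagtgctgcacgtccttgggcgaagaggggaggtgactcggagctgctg
Cox8b, chr7:140900397-140900696, minus strand: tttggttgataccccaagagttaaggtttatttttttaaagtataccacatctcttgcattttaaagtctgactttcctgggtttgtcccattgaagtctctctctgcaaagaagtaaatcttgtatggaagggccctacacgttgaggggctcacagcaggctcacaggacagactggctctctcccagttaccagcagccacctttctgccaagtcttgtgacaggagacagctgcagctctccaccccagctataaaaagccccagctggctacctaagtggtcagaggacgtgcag
Ndufs4, chr13:114388045-114388344, minus strand: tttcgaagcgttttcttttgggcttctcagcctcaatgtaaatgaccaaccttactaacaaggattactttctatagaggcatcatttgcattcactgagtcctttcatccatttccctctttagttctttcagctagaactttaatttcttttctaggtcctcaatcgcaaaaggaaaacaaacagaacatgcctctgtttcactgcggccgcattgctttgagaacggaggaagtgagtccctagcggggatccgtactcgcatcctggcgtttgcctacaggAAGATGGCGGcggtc

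The forms found widely had the promoters richer in CG dinucleotides, with 32 in Cox6a1 and 19 in Cox8a against 7 in Cox7a1 and 2 in Cox8b. Among the 98 nuclear members, 80 matched a promoter by symbol and 18 did not, the muscle form Cox6a2 among them. The median of the 80 was 20 CG dinucleotides against 7 over all 27025 promoters of the same length. The NRF1 motif, searched as exact letters on both strands like every motif here, was in 7 of the 80 (Atp5g2, Atp5k, Cox6a1, Ndufa11, Ndufaf4, Ndufaf5 and Uqcrc1), which is 8.75% against 0.977% of all promoters. The YY1 motif was in 5 (Ndufa9, Ndufaf8, Ndufs4, Ndufs6 and Ndufs7), 6.25% against 0.899%. The ETS letters CCGGAAGT were in 5 (Atp5h, Cox8a, Ndufs3, Uqcr11 and Uqcrh), 6.25% against 4% of all. The ERR letters TCAAGGTCA were in 2 (Atp5g3 and Sdhd), 2.5% against 0.407%, and the MEF2 motif was in 0 of the 80, against 0.115%. These are matches of letters in a window, and none overlapped another motif in the promoters printed. The members' promoters were richer in CG dinucleotides than all promoters, and no set matched for them was compared.

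The mitochondrial mRNAs raise a different matter of sequence, because old copies of mitochondrial DNA lie in the nuclear genome and only read pairs with a single placement were counted. Of the 13, 6 have an annotated nuclear copy at least 99% identical over 100 bases or more: mt-Nd3, mt-Nd4, mt-Nd4l, mt-Co2, mt-Co3 and mt-Atp6. The 60 bases below show such a case beside one that differs. The first 60 bases of mt-Atp6 and of its copy Gm10925 have 0 mismatches, while mt-Co1 from its base 24 and its copy Gm13340 (chr2:22588103-22589647, minus strand) have 2, shown in capitals.
mt-Atp6: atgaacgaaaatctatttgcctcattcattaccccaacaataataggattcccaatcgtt
Gm10925: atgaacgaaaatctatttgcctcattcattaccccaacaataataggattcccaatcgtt
mt-Co1: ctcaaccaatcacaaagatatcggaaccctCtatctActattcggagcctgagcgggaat
Gm13340: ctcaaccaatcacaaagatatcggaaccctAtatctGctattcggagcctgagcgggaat

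Counts of the mRNAs with a near-identical copy were mostly far lower. mt-Atp6 had 724 to 35191 counts per library and mt-Co3 had 1041 to 31834, against 82911 to 916803 for mt-Co1 and 104697 to 404721 for mt-Cytb. mt-Nd4, whose copy covers 63.6% of the mRNA, had 48741 to 204303. The copies took a part of the counts that varied by library. Of the counts of mt-Co3 and its copy together, the copy had 16.1% to 64%. For mt-Nd4 the copy had at most 1.64%. The levels of the 6 are therefore uncertain, and shares, calls between tissues and medians with SN-011 are given with and without them. mt-Atp8, which overlaps mt-Atp6 on the same transcript, had 0 to 140 counts and no annotated copy. The copies of its neighbours mt-Co2 and mt-Atp6 lie close together on the same nuclear chromosome. Sequence outside annotated transcripts was not searched, so an unannotated copy of mt-Atp8 would have been missed. mt-Nd6 is on the other strand of the mitochondrial genome, and the sources used here do not state that strand was used in counting.

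The libraries held 14253416 to 18443329 counts each, and 3 counts, the smallest amount taken as shown, were 0.163 to 0.21 CPM, a count scaled to a fixed library total. Trex1 had 0 counts in all 24, and the labels give the knockout for all of them. Heart muscle, skeletal muscle, gastric and squamous markers were highest in the tissues of those names, with skeletal muscle and squamous epithelium in the tongue. Libraries that stood apart bear on every result below. Control replicate 1 of each tissue had 3060 to 13811 counts of Xist and at most 4 of Uty and Ddx3y, and the other 20 libraries had at most 20 of Xist and at least 110 and 825 of Uty and Ddx3y. Sex therefore differed between control replicate 1 and the rest, and no SN-011 library had Xist at that level. Chief cell markers of the stomach reached 1817 and 177 CPM in heart control replicates 2 and 3, 299.9 and 118 in those of muscle and 1565 and 985 in those of tongue, against at most 26 in the SN-011 libraries of these tissues. Muscle SN-011 replicate 2 had 11546 genes with counts, against at least 19798 in the other libraries. The labels do not say that samples of a group came from separate mice in every tissue, so p-values measure the spread between these samples.

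In the control samples, the mitochondrial mRNAs took up a larger part of the RNA than all nuclear subunits together. The 13 had 7.31%, 11.2% and 12.6% of all counts in the heart, 7.16%, 7.13% and 8.03% in muscle, 7.39%, 5.89% and 4.22% in the tongue and 2.83%, 5.33% and 7.01% in the stomach (replicates 1, 2 and 3). The 86 nuclear subunits had 3.09%, 3.66% and 2.87% in the heart, 2.68%, 2.61% and 2.83% in muscle, 3.47%, 2.78% and 2.41% in the tongue and 2.63%, 2.03% and 1.68% in the stomach. Without the 6 that have a near-identical copy, the mitochondrial share of control samples was 6.42% to 11% in the heart, 6.44% to 7.25% in muscle, 3.81% to 6.61% in the tongue and 2.48% to 6.60% in the stomach, and it lay below the nuclear share in stomach control replicate 1. The stomach controls were the lowest of the 4 tissues in nuclear share by their mean but overlapped muscle and tongue. With the 10 highest other genes of each library left out of the total, the nuclear share was 1.82% to 3.12% in stomach controls. It was 3.04% to 3.92% in those of the heart, 3.43% to 3.65% in those of muscle and 2.63% to 3.67% in those of the tongue. The stomach then overlapped the heart but not muscle, so that both overlaps depended on the total. The ratio of mitochondrial to nuclear counts ran from 1.08 to 4.17 in the stomach controls.

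**Figure D1:**
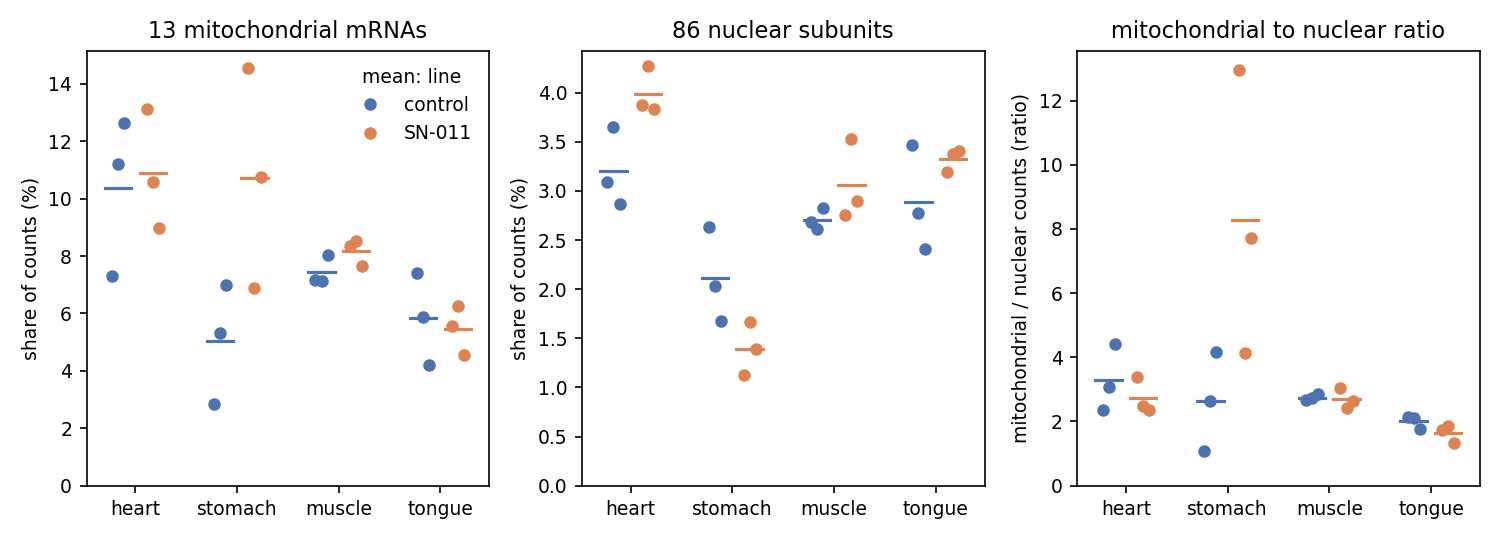
Share of all counts (%) in the 13 mitochondrial mRNAs (left) and the 86 nuclear subunits (middle), and the ratio of the first to the second (right), by tissue; each point is a sample and each line the mean of 3. In the heart the nuclear share was 2.87% to 3.66% in control samples and 3.83% to 4.27% with SN-011, and in the stomach it was 1.68% to 2.63% and 1.12% to 1.67%, or 1.82% to 3.12% and 1.18% to 1.98% with the 10 highest other genes left out of the total.

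Levels of genes were set per kb of the union of annotated exons, which can be longer than the mRNA. That length was 572 bases for Ndufa2 and 584 for Uqcr10, but 5628 for Ndufb2 and 6883 for Ndufab1. The order of genes within a complex therefore depends on the annotation as well as on the counts. Ndufa2, an accessory subunit, was at 395 ± 76.5 CPM per kb in the heart and 546 ± 27.7 in muscle (mean ± SD, n = 3, as for all levels here). By this measure the highest nuclear subunit of complex I was Ndufa2 in every tissue. In complex III it was Uqcr10, a small subunit, at 469.6 ± 100.4 in the tongue to 722 ± 40.2 in muscle. In complex II it was Sdhd, a membrane anchor, in heart, stomach and tongue and Sdhb, the iron-sulfur subunit, in muscle. In complex V it was Atp5a1, the alpha subunit of the catalytic head, at 483 ± 51.5 in the tongue to 948 ± 83 in muscle, except in the stomach, where Atp5h was highest at 309 ± 78.9. Among mitochondrial mRNAs mt-Co1, the core subunit of complex IV, had the highest mean in each tissue. It was at 23610 ± 6557 in the heart, 28924 ± 3079 in muscle, 12747 ± 2180 in the tongue and 12198 ± 8036 in the stomach. In stomach control replicate 1 it was at 3714, below mt-Nd1 at 6911 and mt-Cytb at 6414.

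**Figure D2:**
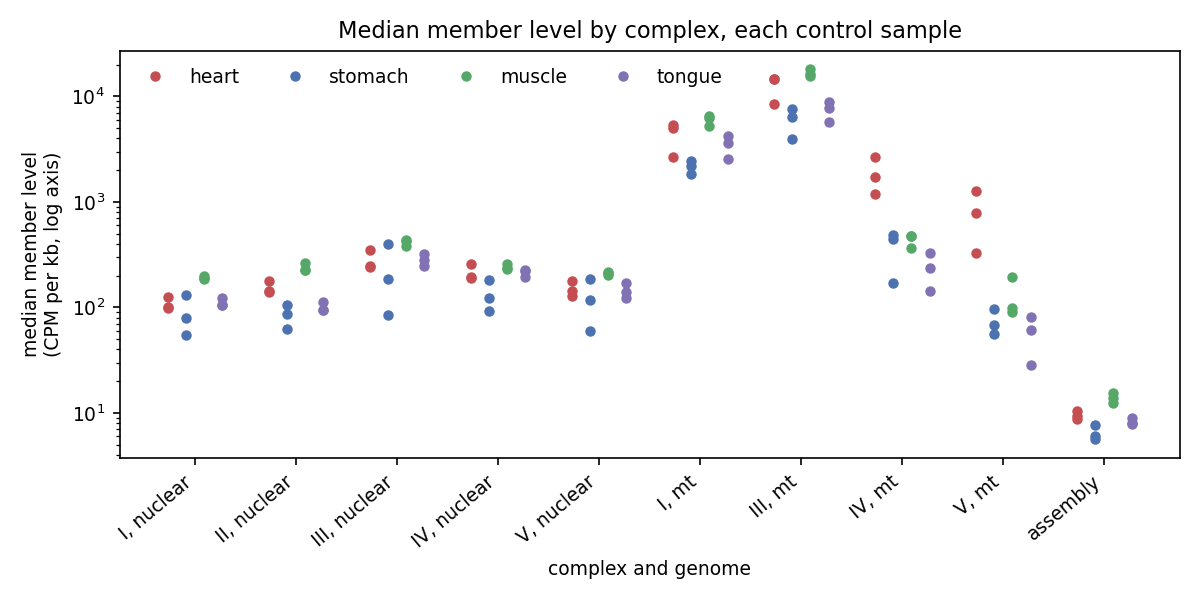
Median level over the members of each complex (CPM per kb, log axis), split by genome, in each of the 12 control samples, coloured by tissue. Nuclear complex I had medians of 186 to 199 in muscle, 98.5 to 126 in the heart, 106 to 123 in the tongue and 54.7 to 132 in the stomach.

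The muscle forms of complex IV subunits set the stomach apart from the other tissues. Cox6a2, the muscle form of subunit VIa, was at 1461 ± 251 CPM per kb in the heart, 2152 ± 157 in muscle and 919 ± 251 in the tongue, against 2.41 ± 3.3 in the stomach. Cox6a1, its counterpart, was at 192 ± 25.8, 124 ± 60.2, 273 ± 63.2 and 1200 ± 842 in the same order. As a share of the pair per kb, Cox6a2 made up 87.4% to 88.9% in heart control samples, 69% to 85.4% in those of the tongue and at most 1.31% in any stomach sample.

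Cox8b, the muscle form of subunit VIII, was at 636 ± 199 CPM per kb in the heart, 1572 ± 92.2 in muscle, 1240 ± 358 in the tongue and 4.81 ± 7.35 in the stomach, while Cox8a was at 303 ± 41.8, 117 ± 39.2, 276 ± 43.4 and 583 ± 351. Cox7a1, the muscle form of subunit VIIa, differed less, at 423 ± 101, 774 ± 82.2, 652 ± 203 and 73.9 ± 47.3. The share of Cox8b in its pair was higher in muscle (90.5% to 94.9% over both treatments) than in the heart (64.1% to 74.7%), without overlap. Cox4i1, the common form of subunit IV, was at 589 ± 287 to 799 ± 66.8 in the 4 tissues, and Cox4i2 at 10.2 ± 1.3 or less.

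**Figure D3:**
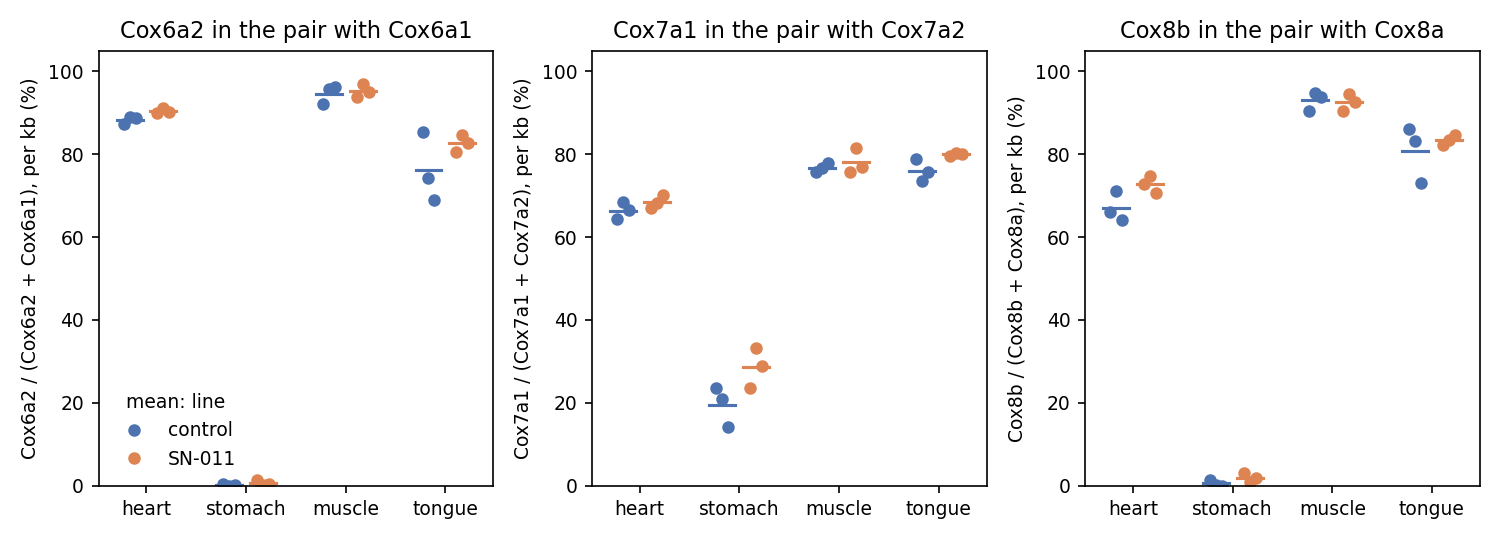
Share (%) of the muscle form in the pairs Cox6a2 and Cox6a1, Cox7a1 and Cox7a2, and Cox8b and Cox8a, from counts per kb of exon, by tissue; each point is a sample and each line the mean of 3. The muscle form made up most of each pair in heart, muscle and tongue, and at most 1.31% (Cox6a2), 33.2% (Cox7a1) and 3.07% (Cox8b) in the stomach.

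The 12 control samples were then compared between tissues in one fit, with edgeR's quasi-likelihood test and Benjamini-Hochberg adjustment over 18301 genes. Between heart and stomach, 27 of 83 nuclear subunits tested were called with the heart higher and 2 with it lower, against 24.1% and 22.5% of all genes. Cox6a2 was higher in the heart by 9.33 ± 0.98 on the log2 scale (SE; adjusted p = 2.23e-05) and Cox8b by 7.15 ± 1.14 (adjusted p = 0.000375). These folds are set by low stomach values. Cox6a2 was at 6.21, 0.307 and 0.699 CPM per kb in the stomach control samples and Cox8b at 13.3, 1.16 and 0, and the skeletal muscle markers summed to 360.4, 7.30 and 10.4 CPM in the same samples. Without stomach control replicate 1 the differences were 11.49 and 10.19, so their size is uncertain while their direction held. Cox6a1 was higher in the stomach, with a difference of -2.61 ± 0.53 (adjusted p = 0.00181), as was Uqcrb at -0.78 ± 0.27 (adjusted p = 0.0512 with the replicate number as a block). Of the 13 mitochondrial mRNAs, 9 were higher in the heart, among them mt-Cytb by 1.11 ± 0.40 (adjusted p = 0.0396) and mt-Nd5 by 1.70 ± 0.40 (adjusted p = 0.00463). Of the 7 without a near-identical copy, 4 were called. Over all classes of members 41 were called, with 27 without heart control replicate 2 and 62 without stomach control replicate 1.

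Between stomach and muscle, 3 nuclear subunits were higher in the stomach and 49 in muscle, against 28.6% and 28.1% of all genes, and 7 mitochondrial mRNAs were higher in muscle, 5 of them without a near-identical copy. The 3 were Cox6a1 (3.21 ± 0.54), Cox8a (2.24 ± 0.42) and Cox6b2 (1.68 ± 0.64). Cox6a2 had a difference of -9.92 ± 1.01, Cox8b of -8.49 ± 1.20 and Cox7a1 of -3.46 ± 0.45. Without stomach control replicate 1 that of Cox6a2 was -12.07 and that of Cox8b -11.53. Between stomach and tongue the counts were 2 and 17, against 18.1% and 22.5% of all genes. Cox6a2 differed by -8.65 ± 0.96 and Ndufa4l2 by -6.88 ± 0.67, both lower in the stomach (-10.81 for Cox6a2 without stomach control replicate 1), and no mitochondrial mRNA was called. The 21 calls over all classes of this pair became 50 without stomach control replicate 1 and 14 without stomach control replicate 2.

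Heart, muscle and tongue were compared in the same way. Between heart and muscle, 2 nuclear subunits were higher in the heart and 27 in muscle, against 19.9% and 19% of all genes. Cox8a was higher in the heart by 1.34 ± 0.40 (adjusted p = 0.0208), and the assembly factors Ndufaf5, which modifies a core subunit of complex I, and Ndufaf1 were lower in the heart, with differences of -1.77 ± 0.22 and -1.32 ± 0.17. Of the mitochondrial mRNAs 4 were higher in the heart (mt-Co2, mt-Co3, mt-Atp6 and mt-Nd4l, all with a near-identical nuclear copy) and 0 in muscle. Between heart and tongue the nuclear counts were 2 and 1, against 15.9% and 16.4%, with Uqcrc2 (0.94 ± 0.31) and Sdhd (0.67 ± 0.19) higher in the heart and Ndufa4l2 (-3.32 ± 0.56) higher in the tongue, and 7 mitochondrial mRNAs were higher in the heart, with a median of 1.43 over the 13. Without the 6 that have a near-identical copy, 2 of 7 were called (mt-Nd5 and mt-Atp8) and the median was 0.76. Between muscle and tongue the nuclear counts were 37 and 3, against 21.3% and 22%, and 7 mitochondrial mRNAs were higher in muscle, 4 of them without a near-identical copy. Calls over all classes went from 37 to 23 for heart against muscle (without heart control replicate 1 or 3 or muscle control replicate 3), from 11 to 6 for heart against tongue (without tongue control replicate 3) and from 54 to 33 for muscle against tongue (without tongue control replicate 3). Ndufa4l2, a relative of the complex IV subunit Ndufa4, was at 156 ± 98 CPM per kb in the tongue and at most 15.5 ± 1.02 in the other tissues.

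The order of muscle against the other tissues depended on scaling. With TMM scaling the median nuclear subunit differed by -0.68 between heart and muscle, by -1.02 between stomach and muscle and by 0.73 between muscle and tongue, and with library size alone by 0.18, -0.32 and -0.13, so that the first and the third changed sign. The mitochondrial medians were -0.09, -1.54 and 1.22 with TMM and 0.78, -0.73 and 0.36 with library size alone, where the first changed sign. Over the 7 mRNAs without a near-identical copy they were -0.44, -1.68 and 1.22 with TMM. Heart against stomach kept its direction, at 0.39 and 1.29 for nuclear and mitochondrial medians with TMM.

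SN-011 was compared with control within each tissue, on CPM scaled within that tissue. In bulk tissue fewer cells of a type and less RNA per cell cannot be told apart. No member passed the adjusted threshold of 0.05 in any tissue, against 137 of 16151 genes in the heart (0.848%), 0 of 17031 in the stomach (0%), 2 of 14198 in muscle (0.0141%) and 0 of 16587 in the tongue (0%). The values below are therefore given as differences, with counts at an unadjusted p under 0.05 and counts of members whose groups did not overlap. DESeq2 called 50, 18, 4 and 0 members in the same order. The shares above are those of edgeR with every library, and none is given here for another tool or with libraries left out.

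In the heart nearly all nuclear subunits lay higher with SN-011. The median difference was 0.49 on the log2 scale against -0.01 over all genes, and 82 of 83 were positive, Cox6b2 (-0.10) being the exception. An unadjusted p under 0.05 was reached by 67, all higher, where 10.8% of all genes were higher and 11.6% lower at that level. In 62 every SN-011 sample lay above every control sample, against 14.1% of all genes (13.1% had every SN-011 sample below). The complex medians were 0.50 (I), 0.28 (II), 0.51 (III), 0.42 (IV) and 0.51 (V).

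Ndufa6, an accessory subunit of complex I, was at 173, 209 and 171 CPM in the heart control samples and 269, 293 and 252 with SN-011, a difference of 0.56 ± 0.13 (adjusted p = 0.0758). Ndufb7, of the membrane arm of complex I, was at 245, 289 and 222 against 353, 447 and 373 (0.63 ± 0.15, adjusted p = 0.0781). Atp5o, which joins the head of ATP synthase to its stalk, was at 335, 435 and 323 against 549, 615 and 515 (0.62 ± 0.15, adjusted p = 0.0864). All 3 had groups that did not overlap and none passed the threshold. Cox8b had the largest difference of the 83, at 216, 350 and 201 against 354, 473 and 371 CPM (0.64 ± 0.22, adjusted p = 0.145).

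The muscle forms of complex IV and their counterparts were not tested against each other. Cox6a2 was at 991, 1338 and 997 CPM against 1463, 1873 and 1513 (0.54 ± 0.18) and Cox7a1 at 208, 323 and 226 against 354, 396 and 353 (0.54 ± 0.18), while Cox6a1 differed by 0.23 ± 0.13 and Cox8a by 0.28 ± 0.14. The share of Cox6a2 in its pair was 87.4%, 88.9% and 88.8% in control samples and 89.9%, 91.3% and 90.1% with SN-011, without overlap. The shares of the other muscle forms overlapped, with Cox7a1 at 64.3%, 68.4% and 66.5% against 67.1%, 68.4% and 70.3%, and Cox8b at 66.1%, 71.1% and 64.1% against 72.8%, 74.7% and 70.8%.

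The mitochondrial mRNAs of the heart had a smaller median difference, and its contrast with that of the nuclear subunits was not tested. Their median was 0.22, 9 of 13 were positive, none reached an unadjusted p of 0.05 and every one had overlapping groups. Without control replicate 1, the heart control library with Xist, the median was -0.01. mt-Co1 was at 27650, 45478 and 49037 CPM in control samples and 59220, 44809 and 38273 with SN-011 (0.22 ± 0.31). Control replicate 1 was the lowest of the 6 samples and SN-011 replicate 1 the highest, and mt-Cytb had the same order at its ends, 10693, 18602 and 18632 against 22844, 19411 and 14988 (0.26 ± 0.28). Without the 6 mRNAs that have a near-identical copy the median was again 0.22. The assembly factors had a median of 0.15, with 3 of 12 at an unadjusted p under 0.05.

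Other cell markers moved beside these values in the heart. The summed level of 8 cardiomyocyte markers was 40588, 45829 and 32557 CPM in control samples and 53099, 54360 and 45801 with SN-011, and that of 4 fibroblast markers 2670, 1866 and 1992 against 1377, 1295 and 1454. All 8 cardiomyocyte markers were positive, with a median of 0.43 and 4 higher at an unadjusted p under 0.05. None of the 4 fibroblast markers was positive, with a median of -0.62 and 3 lower at that level. The blood list was at 492 to 1395 against 1373 to 2506. Of 14 marker lists, 3 were higher with SN-011 without overlap (slow muscle fibre, smooth muscle and brown adipocyte) and 1 lower (fibroblast) in their sums. The slow muscle fibre list is not particular to skeletal muscle. It was at 4147 to 6140 CPM in heart control samples and 83.7 to 442 in those of muscle. In the smooth muscle list the sum and the members differed, with 1 of 5 members positive and a median of -0.15, and in the brown adipocyte list 1 of 2 members tested was positive. Their part in the result was not tested. The 81 cytosolic ribosomal protein genes, counted the same way, had a median of 0.17, with 6 higher and 1 lower at an unadjusted p under 0.05. Without control replicate 2, the heart library with the most gastric RNA, 46 members were called in the heart and the nuclear median was 0.63. The share of all genes called without that library is not given here.

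In the stomach the nuclear subunits lay the other way. The median difference was -0.75 against 0.00 over all genes, and 77 of 83 were negative. At an unadjusted p under 0.05, 32 were lower and 1 higher, where 11.4% of all genes were lower and 13.2% higher. In 26 every SN-011 sample lay below every control sample and in 1 above, against 15.2% and 17.8% of all genes. The complex medians were -0.65 (I), -0.83 (II), -0.85 (III), -0.72 (IV) and -0.97 (V), and the 6 positive subunits were Ndufb3, Cox4i2, Cox6a2, Cox6b2, Cox8b and Ndufa4l2.

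Ndufs4, an accessory subunit of complex I needed for its stability, was at 261, 166 and 163 CPM in the stomach control samples and 53.1, 109 and 72 with SN-011, a difference of -1.33 ± 0.35 (adjusted p = 0.0899). Atp5c1, the rotating gamma subunit of ATP synthase, was at 739, 485 and 401 against 167, 314 and 219 (-1.22 ± 0.38, adjusted p = 0.115). Sdhd was at 228, 207 and 167 against 76.4, 111 and 106 (-1.04 ± 0.27, adjusted p = 0.0899). SN-011 replicate 1 was the lowest sample for all 3 and control replicate 1 the highest. Ndufc1, of complex I, had the same pattern at 209, 106 and 120 against 41.1, 95.6 and 53.4 (-1.19 ± 0.40, adjusted p = 0.128). The assembly factor Ndufaf1 was at 32.9, 24.1 and 29.6 against 12.9, 13.5 and 14.3 (-1.09 ± 0.24, adjusted p = 0.0727), and all 12 assembly factors were negative, with a median of -0.37.

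Ndufa4l2 was the nuclear subunit that stood higher. It was at 3.31, 1.31 and 0.802 CPM in the stomach control samples and 15.3, 5.28 and 10.6 with SN-011, a difference of 2.54 ± 0.64 (adjusted p = 0.0827). Ndufa4 itself was at 368, 234 and 166 against 119, 158 and 115 (-0.97 ± 0.35, adjusted p = 0.144). As a share of the pair per kb, Ndufa4l2 made up 1.12%, 0.7% and 0.606% in control samples and 13.9%, 4.05% and 10.4% with SN-011. The groups did not overlap in either gene.

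The mitochondrial mRNAs of the stomach lay on the opposite side to the nuclear subunits. Their median difference was 0.90, 11 of 13 were positive, 6 had every SN-011 sample above every control sample and 1 reached an unadjusted p under 0.05, where 17.8% and 13.2% of all genes did so in that direction. mt-Cytb was at 8552, 10312 and 5601 CPM in control samples and 23842, 13659 and 18190 with SN-011 (1.19 ± 0.64, adjusted p = 0.288). mt-Nd4 was at 3932, 5314 and 3120 against 11642, 6582 and 9089 (1.14 ± 0.55, adjusted p = 0.242). mt-Co1 overlapped, at 6688, 24320 and 37675 against 53455, 31644 and 42822 (0.90 ± 0.89), and mt-Nd4l had the largest difference of the 13, at 1.23 (adjusted p = 0.115). Without the 6 mRNAs that have a near-identical copy the median was again 0.90, with 7 of 7 positive and 3 not overlapping.

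The ratio of mitochondrial to nuclear counts was 1.08, 2.63 and 4.17 in the stomach control samples and 13, 4.13 and 7.72 with SN-011, so that only control replicate 3 and SN-011 replicate 2 overlapped. In the other tissues the ratio lay between 1.34 and 4.40. The ratio of mt-Co1 to mt-Cytb counts was 0.782 in stomach control replicate 1 and 6.73 in stomach control replicate 3, while all other libraries but muscle SN-011 replicate 2 (0.826) had 2.04 to 2.63. The mitochondrial mRNAs thus did not keep the same proportions in these 3 libraries.

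Levels of cell type markers in the stomach samples differed as well. The 4 parietal cell markers summed to 5059, 5578 and 4319 CPM in control samples and 1535, 3348 and 2371 with SN-011, without overlap. The surface mucous list was at 24136 to 90265 against 4119 to 31519, and the squamous epithelium list at 118 to 258 against 554 to 1638. Smooth muscle markers were at 1129 to 6721 against 5195 to 10472. Of the 14 lists, 2 were higher with SN-011 without overlap (squamous epithelium and brown adipocyte) and 1 lower (parietal cell). The brown adipocyte sum was low, at 1.98 to 2.26 CPM against 5.65 to 8.19, and 2 of its 4 members were tested. The part of these lists in the result was not tested. Cytosolic ribosomal protein genes had a median of -0.43, with 0 higher and 5 lower of 80 at an unadjusted p under 0.05. Without stomach control replicate 1 the nuclear median was -0.33 and the mitochondrial median 0.50.

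In muscle both genomes were higher with SN-011, but 1 library carried much of the size. The median was 0.48 for nuclear subunits, with 76 of 83 positive, and 0.49 for mitochondrial mRNAs, with 11 of 13 positive, against -0.08 over all genes. At an unadjusted p under 0.05, 40 nuclear subunits and 5 mitochondrial mRNAs were higher and none lower, where 8.96% of all genes were higher and 5.8% lower. No overlap, higher, held for 57 nuclear subunits against 14.7% of all genes, and for 7 mitochondrial mRNAs, with 1 lower, against 19.8% lower. Without the 6 that have a near-identical copy the mitochondrial median was again 0.49, with 3 of 7 higher at an unadjusted p under 0.05. The complex medians were 0.46 (I), 0.12 (II), 0.52 (III), 0.51 (IV) and 0.48 (V).

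Uqcrc1, a core protein of complex III, had the clearest difference. It was at 732, 738 and 776 CPM in the muscle control samples and 1041, 1176 and 1034 with SN-011, a difference of 0.53 ± 0.11 (adjusted p = 0.141). Ndufb9, of complex I, was at 178, 171 and 188 against 224, 477 and 254 (0.83 ± 0.29), and Ndufb2 at 16.2, 18.2 and 14.5 against 21, 46.9 and 24 (0.91 ± 0.33). In both, SN-011 replicate 2 was far above the other samples. mt-Nd3 rested on the same library, at 28.7, 34.5 and 35.9 against 47.1, 162 and 36.2 (1.31 ± 0.57). mt-Cytb was at 11518, 10728 and 12307 against 15777, 22909 and 14709 (0.63 ± 0.20, adjusted p = 0.246), while mt-Co1 was at 24642, 27208 and 29315 against 33454, 18914 and 30027 (0.02 ± 0.23).

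Not every subunit was higher in muscle SN-011 replicate 2. Sdha, the flavoprotein of complex II, was at 563, 668 and 633 CPM in control samples and 623, 419 and 639 with SN-011, and Uqcrc2 at 256, 284 and 287 against 312, 137 and 282. Without that library the nuclear median was 0.24 and the mitochondrial median 0.30, and 7 members were called, Uqcrc1 and mt-Cytb among them. How many of all genes were called in that fit is not given here. The assembly factors had a median of -0.16, and Sdhaf4, which serves complex II, was at 13.9, 15.3 and 17.2 against 10.1, 3.67 and 11.2 (-0.89, adjusted p = 0.387). The skeletal muscle list summed to 138041, 152281 and 140486 CPM in control samples and 165809, 213456 and 168281 with SN-011, and the fibroblast list to 915, 1275 and 1319 against 701, 415 and 695. The blood list was at 771, 191 and 297 against 1154, 855 and 1156, and the endothelium list at 174 to 213 against 128 to 152. The sums of smooth muscle markers, at 3943 to 4163 against 4865 to 5852, and gastric surface mucous markers, at 29.3 to 349.9 against 0 to 13.6, did not overlap either. Members of the smooth muscle list went both ways. Of its 4 members tested, 3 were positive, with 2 higher and 1 lower at an unadjusted p under 0.05. Ribosomal protein genes had a median of 0.51, with 55 of 81 higher at an unadjusted p under 0.05, as large as that of the nuclear subunits. The part of these in the result was not tested.

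In the tongue the differences were small. The nuclear median was 0.13, with 68 of 83 positive, 2 higher at an unadjusted p under 0.05 (5.17% of all genes were higher and 7.33% lower) and 4 with no overlap, higher (9.4% of all genes, with 8.38% lower). The mitochondrial median was -0.15, with 2 of 12 positive and 1 with no overlap, lower, and again -0.15 without the 6 that have a near-identical copy. It was 0.06 without control replicate 1 and -0.32 without control replicate 3. mt-Atp8 was under the filter here. Ndufv1, which holds the flavin of complex I, was at 407, 385 and 339 CPM in control samples and 437, 530 and 474 with SN-011 (0.35 ± 0.14, adjusted p = 0.379).

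The control samples of the tongue spread widely for some genes. Ndufa4l2 was at 65.7, 223 and 315 CPM in control samples and 148, 124 and 108 with SN-011 (-0.67 ± 0.49). The squamous epithelium list was at 12751, 41393 and 62512 CPM in the same control samples and 16410 to 24573 with SN-011, and the skeletal muscle list at 17745 to 28495 against 25230 to 28917. Of the 14 lists, that of gastric surface mucous cells alone did not overlap, at 42.5 to 1372 against 5.67 to 16.5. Their part in the result was not tested. Without tongue control replicate 1, 16 members were called and the nuclear median was 0.27. Without control replicate 3 the nuclear median was 0.03. Shares of all genes called in these fits are not given here.

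**Figure D4:**
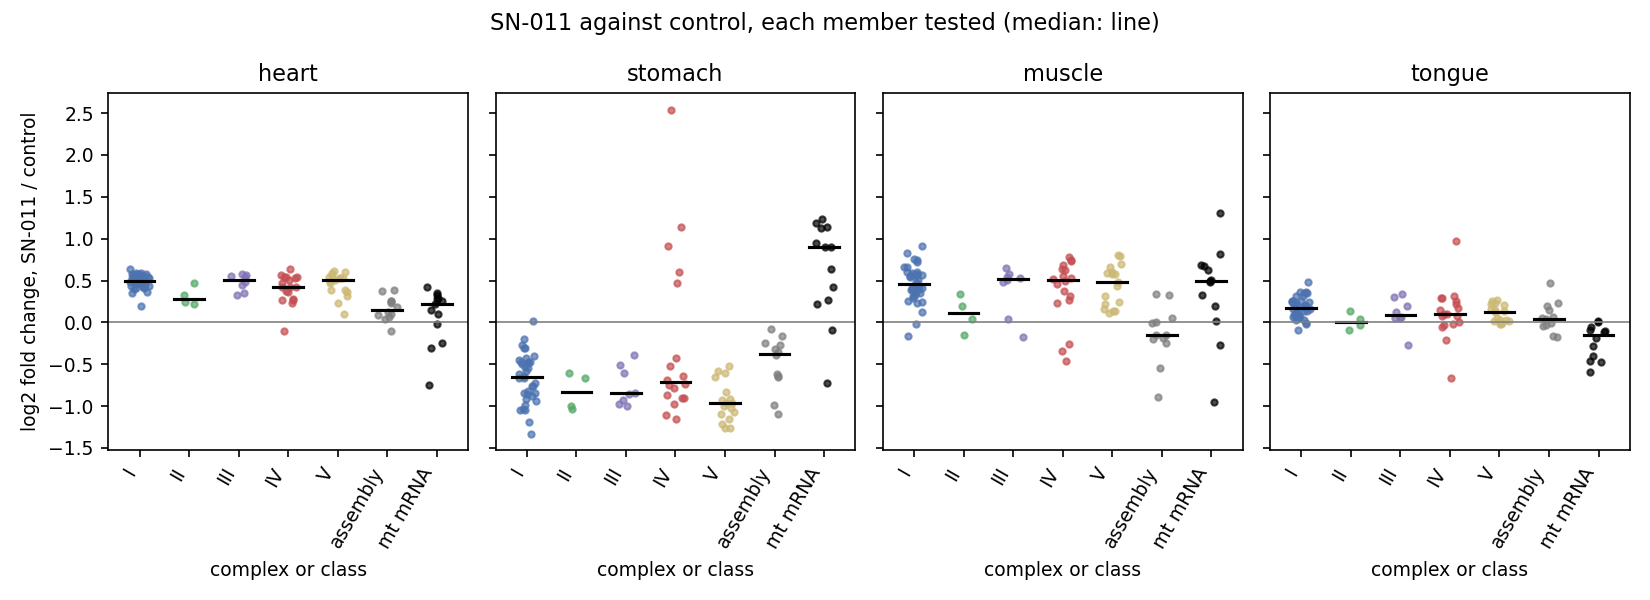
Difference between SN-011 and control samples (log2 fold change) for each member tested, by complex or class, in the 4 tissues; each point is a gene and each line the median. Medians of the nuclear subunits over all complexes were 0.49 in the heart, -0.75 in the stomach, 0.48 in muscle and 0.13 in the tongue, and those of the mitochondrial mRNAs 0.22, 0.90, 0.49 and -0.15.

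Whether the difference with SN-011 varied among tissues was tested directly, with the 3 interaction terms of a fit to all 24 samples (edgeR's quasi-likelihood F test, Benjamini-Hochberg adjustment over 19731 genes). Of the 83 nuclear subunits, 19 passed, against 2.32% of all genes, with 5 of complex I, 2 of complex II, 0 of complex III, 6 of complex IV and 6 of complex V. None of the 13 mitochondrial mRNAs and none of the 12 assembly factors passed, with 1 and 2 at an unadjusted p under 0.05. In 18 of the 19, SN-011 samples of the stomach were lower, by -1.33 to -0.69, and those of the heart higher, by 0.27 to 0.60.

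Ndufs4 had the lowest adjusted p, 0.0136, with differences of 0.49 in the heart, -1.33 in the stomach, 0.41 in muscle and 0.07 in the tongue. Sdhd followed at an adjusted p of 0.0141 (0.32, -1.04, 0.04 and 0.14). Atp5h, of the stalk of ATP synthase, had 0.51, -0.97, 0.44 and 0.15 (adjusted p = 0.0213), and Ndufab1, the mitochondrial acyl carrier protein, 0.52, -0.94, 0.32 and 0.09 (adjusted p = 0.0213). These 4 share the order of heart and stomach. Ndufa4l2 was the one subunit called with the order turned, at 0.42, 2.54, -0.46 and -0.67 (adjusted p = 0.0457, and 0.0931 with the replicate number as a block). Among all nuclear subunits, 63 of 83 (75.9%) were positive in heart, muscle and tongue and negative in the stomach, against 1142 of 13198 genes tested in the 4 tissues (8.65%).

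The calls depended on the stomach samples. With the 6 stomach libraries left out, 0 members were called for a difference among heart, muscle and tongue. With the 4 control libraries that had Xist left out, 4 remained (Ndufa4l2, Sdhd, Atp5h and Ndufs4). Without stomach SN-011 replicate 1, or without stomach SN-011 replicate 3, 1 member was called, and without stomach control replicate 3 the number was 49. Leaving out any 1 of 20 libraries of the 24 moved the number by over 1.5 times. The 2.32% of all genes belongs to the fit of all 24, and the share in each of these other fits is not given here.

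**Figure D5:**
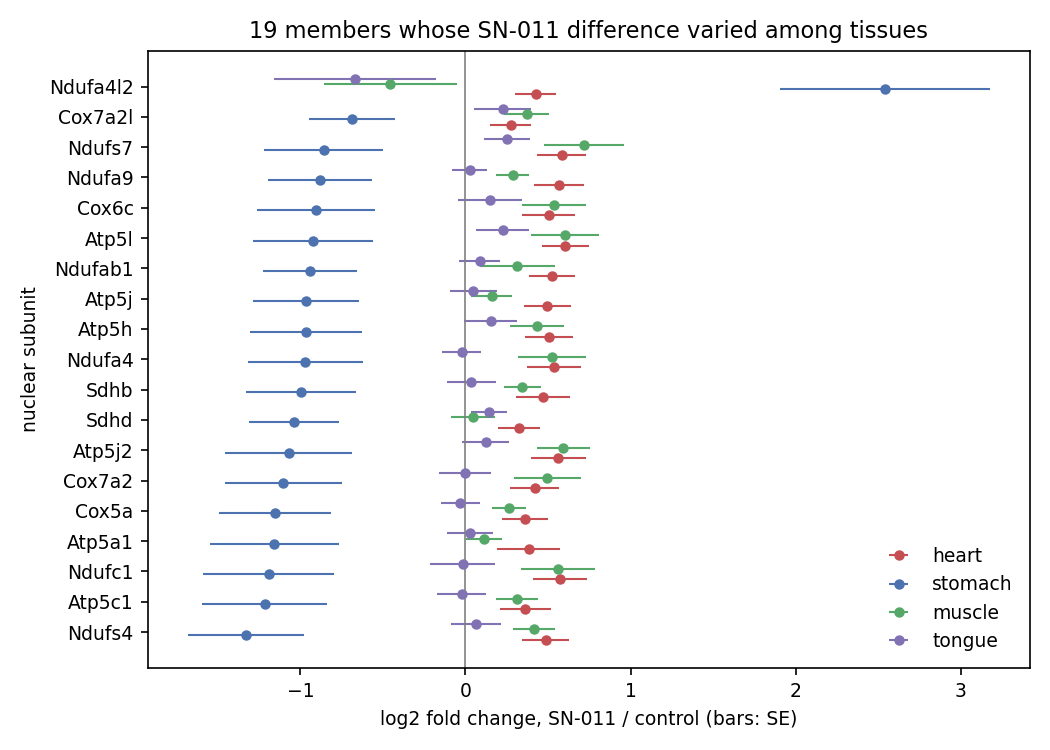
Difference between SN-011 and control samples (log2 fold change, bars are SE from the fit of each tissue) in the 4 tissues for the 19 nuclear subunits whose difference varied among tissues. The stomach lies between -1.33 and -0.69 for 18 of them and at 2.54 for Ndufa4l2.

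The other genes of the pathway were counted in the same fits, and none passed the adjusted threshold. Of 13 subunits and carriers outside the naming rule that were tested, 9 lay above and 0 below control in heart samples at an unadjusted p under 0.05, with 1 and 3 for stomach, 1 and 0 for muscle and 0 and 0 for tongue. Over all genes, 10.8% lay above and 11.6% below at that level for heart, 13.2% and 11.4% for stomach, 8.96% and 5.8% for muscle and 5.17% and 7.33% for tongue. Usmg5, a small subunit of ATP synthase, differed by 0.46 ± 0.14 (heart) and -1.37 ± 0.39 (stomach), and Cycs, cytochrome c, by 0.35 ± 0.15 and -1.06 ± 0.37. Coq10a, a coenzyme Q binding protein, was higher in both, by 0.49 ± 0.15 and 0.84 ± 0.23. The TCA cycle enzymes, which supply the chain with NADH and succinate, had 5 of 14 higher with SN-011 and 0 lower in heart samples, 0 and 5 in stomach samples, and medians of 0.33 and -0.67. Suclg1, of succinyl-CoA synthetase, differed by 0.40 ± 0.14 and -1.04 ± 0.32.

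At the same unadjusted level, assembly factors outside the rule had 6 of 31 above control in heart samples (10.8% of all genes) and 5 below it in stomach samples (11.4%). Their medians were 0.17 and -0.33, and 0.00 in muscle and 0.06 in the tongue. Of the 23 genes of mitochondrial biogenesis and mtDNA expression, the numbers above and below control at that level were 6 and 1 (heart), 1 and 5 (stomach), 3 and 0 (muscle) and 1 and 3 (tongue). Shares over all genes are those given for the lists above. Ppargc1a, a coactivator of mitochondrial gene programs, was at 62.7 ± 18 CPM in heart control samples and 118 ± 24.5 with SN-011 (0.91 ± 0.21, adjusted p = 0.0776). Perm1, a muscle regulator of the same programs, was the gene higher in the stomach, at 15.2 ± 4.59 against 49.2 ± 5.15 CPM (1.69 ± 0.27, adjusted p = 0.0618). Tfam, which packages and transcribes mitochondrial DNA, was at 44.6 ± 8.93 against 30.6 ± 1.99 in the stomach (-0.55 ± 0.23, adjusted p = 0.192).

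The remaining 3 members had too few reads to test in any tissue. Cox7b2, Cox8c and the Atp5o read-through gene ENSMUSG00000116933 had 0 to 5 counts in every library. Cox7b2 and Cox8c are forms known from the testis.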

How the data were processed

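Total RNA was extracted with Trizol and polyA+ libraries were sequenced in pairs of 150 bases. The authors deposited raw read-pair counts for each gene, not normalized. The submitters' processing notes name HISAT2, HTSeq and mm10, and the paper's methods name hisat2 and featureCounts with uniquely mapped pairs. Gene symbols were taken from GENCODE M21, which held 54495 of the 54532 identifiers. Groups follow the labels for tissue and drug. A separate model per tissue was run in edgeR 4.0.16 under R 4.3.3, with TMM scaling, filterByExpr (minimum count 10, minimum total count 15) and the quasi-likelihood test, two-sided. P-values were adjusted by the Benjamini-Hochberg method across every gene in the fit, with a threshold of 0.05. The 12 control samples were fitted together for the comparisons of tissues, and all 24 samples for the interaction. The prior count for fold changes was 0.125, and errors of fold changes are SE. A nuclear copy was an annotated transcript aligned at 95% identity or more over at least 100 bases. Scripts were tested on simulated data. Same-numbered control samples deviated together in heart and muscle (correlations of at least 0.25) and in muscle and tongue (at least 0.16). Correlations were also positive in heart and tongue (0.07 to 0.47), heart and stomach (0.09 to 0.29) and stomach and muscle (0.08 to 0.23). In stomach and tongue the correlations ran from -0.14 to 0.25. The labels state no shared mouse. The main fits treated the samples as separate, and the replicate block was an alternative.

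Genes with values are the mitochondrial mRNAs, the paralog sets of complex IV, Ndufa4 and Atp5g, the highest member per complex and tissue, and the 3 largest differences each way per comparison among members at 10 CPM or more whose groups do not overlap (SN-011) or that pass 0.05 (tissues). Ndufa6 (heart), Ndufaf1 (stomach), Uqcrc1, Uqcrc2 and Sdha (muscle), and genes whose names came from counts of 5 or fewer, from the interaction and from the pathway lists were chosen outside this rule after their values were seen. The members, the lists and the tests were chosen with earlier results of these data known. Alternatives were DESeq2 1.42.0, its size factors, library size alone, sizes without mitochondrial mRNAs, other filters, edgeR's exact test, a joint fit, a replicate block and leaving out each library. Ribosomal protein genes, the mitochondrial mRNAs without a copy, and the interaction without the Xist or the stomach libraries were added after seeing the data. With 3 samples a group the precision is limited by their spread, and intervals for counting error were not used.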

Additional observations from a re-analysis of the deposited data

Results flagged for a closer look

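The difference between SN-011 and control samples varied among the 4 tissues for 19 nuclear subunits, by edgeR's quasi-likelihood F test of the interaction (Benjamini-Hochberg adjustment across every gene in the fit). In complex I the adjusted p was 0.0136 for Ndufs4, 0.0213 for Ndufab1, 0.0314 for Ndufa9, 0.0432 for Ndufs7 and 0.0464 for Ndufc1. In complex II it was 0.0141 for Sdhd and 0.0334 for Sdhb. In complex IV it was 0.0272 for Cox5a, 0.0302 for Cox7a2, 0.0361 for Cox7a2l, 0.0378 for Ndufa4, 0.0429 for Cox6c and 0.0457 for Ndufa4l2. In complex V it was 0.0213 for Atp5h, 0.0231 for Atp5j, 0.0231 for Atp5j2, 0.0289 for Atp5c1, 0.0401 for Atp5l and 0.0478 for Atp5a1. For 18 of the 19 the stomach and the heart lay on opposite sides of 0 in the same way, and for Ndufa4l2 the difference was larger in the stomach (2.54) than in the heart (0.42). With the replicate block the adjusted p was 0.0506 for Sdhb, 0.0693 for Atp5a1 and 0.0931 for Ndufa4l2. No member was called when the stomach libraries were left out, a fit for which the share over all genes is not given here.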

How the results depend on the processing

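The median difference with SN-011 of nuclear subunits or mitochondrial mRNAs changed sign in no tissue with another scaling, filter or tool, and the counts of members called depended on the test. Shares over all genes are given for the main fits only. Counts of members called under an alternative, in this section and above, thus have no background beside them. In the heart 0 members were called, against 41 with no filter on low counts, 50 with DESeq2 and 17 with edgeR's exact test, and 0 to 46 when each library was left out (46 without control replicate 2). In the stomach 0 were called, against 4 with no filter, 18 with DESeq2, 9 with the exact test and 40 in a joint fit of 24 samples, and 0 to 0 with each library left out. In muscle DESeq2 called 4 and leaving out each library gave 0 to 7 (7 without SN-011 replicate 2), and in the tongue it gave 0 to 16 (16 without control replicate 1). At an unadjusted p under 0.05 the edgeR test had 70, 36, 45 and 3 members in heart, stomach, muscle and tongue. With each library left out, the nuclear medians ran from 0.40 to 0.63 (heart), -0.99 to -0.33 (stomach, the latter without control replicate 1), 0.24 to 0.60 (muscle, the former without SN-011 replicate 2) and 0.03 to 0.27 (tongue). The mitochondrial medians ran from -0.01 to 0.34, 0.50 to 1.06, 0.30 to 0.61 and -0.32 to 0.06, so that those of heart and tongue changed sign without control replicate 1. Between tissues, library size alone gave 20 calls for heart against muscle (37 with TMM), 38 for stomach against muscle (65), 32 for stomach against tongue (21) and 13 for muscle against tongue (54). Shares of counts moved by more than 1 SD in 20 of 40 values, with the 10 highest other genes left out of the total or with pairs not set per kb. With each library left out, the calls ran from 27 to 62 for heart against stomach (41; 27 without heart control replicate 2, 62 without stomach control replicate 1), 23 to 32 for heart against muscle (23 without heart control replicate 1 or 3 or muscle control replicate 3), 6 to 8 for heart against tongue (11; 7 without heart control replicate 2 or 3, 6 without tongue control replicate 3), 52 to 90 for stomach against muscle, 14 to 50 for stomach against tongue (50 without stomach control replicate 1) and 33 to 47 for muscle against tongue (33 without tongue control replicate 3, 34 without muscle control replicate 3). The interaction had 19 calls, 4 without the Xist libraries, 0 without the stomach and 1 to 49 with each library left out. The cause of these shifts was not tested. Same-numbered control and SN-011 samples of a tissue did not deviate together (mean correlation -0.04 over 12 pairs). Same-numbered control samples of different tissues had a mean correlation of 0.25 (-0.14 to 0.55 over 18 pairs), and SN-011 samples of 0.06, so the numbers tie control samples across some pairs of tissues. With the replicate block, members called were 0 in each tissue, 38, 39, 11, 72, 21 and 54 for the pairs of tissues in the order heart-stomach, heart-muscle, heart-tongue, stomach-muscle, stomach-tongue and muscle-tongue, and 17 for the interaction. The block ended the interaction calls of Sdhb (adjusted p = 0.0506), Atp5a1 (0.0693) and Ndufa4l2 (0.0931) and the call of Uqcrb for heart against stomach (0.0512), and changed no other call of a named gene. Of values for single genes with SN-011, 227 kept their direction and their side of the threshold and 28 passed it under an alternative. Of those for the 19 interaction genes 309 kept the call and 261 lost it, and of those between tissues 326 kept it and 38 lost it.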
